A study of Mus musculus with 32 samples.

Results

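Chemokine ligands are small secreted proteins that draw leukocytes along a gradient by binding G-protein-coupled receptors on the cell surface. CXC ligands with the glutamate-leucine-arginine (ELR) motif draw neutrophils, most of them through the receptor CXCR2. Most CC ligands act on monocytes, eosinophils, dendritic cells or lymphocytes. A further set is made without inflammation and places lymphocytes and dendritic cells in resting tissue. In the lung these genes are used by airway and alveolar epithelium, stroma, endothelium and resident macrophages. The members described here are the genes whose symbol begins with Ccl or Cxcl followed by a digit, together with Xcl1 and Cx3cl1. Pseudogenes marked -ps in the symbol were dropped, while Cxcl11, annotated as a polymorphic pseudogene, was kept. The rule found 38 genes among 41687 rows of the table, and left out the pseudogenes Ccl19-ps1 and Ccl19-ps3. Of the 38, 37 gave counts in at least 1 library, and Ccl26 was at 0 in all.

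The counts came from lungs of adult C57b/6 wild-type mice (WT) and of Bmal1 knock-outs (KO), 6 mice of each, aged 8 to 18 weeks and labelled female. Bmal1, whose gene symbol is Arntl, is a core transcription factor of the circadian clock. The labels do not say how the gene was deleted, in which cells, whether WT and KO were littermates, or at what time of day the lungs were taken. RNA was made into libraries by 3 preparations. For RiboZero libraries ribosomal RNA was pulled down, and for PolyA libraries polyadenylated RNA was selected, both for all 12 mice. NoSelect libraries had neither step and existed for mice 3 to 6 of each genotype (n = 4). The comparison is KO against WT within each preparation, and the same mice recur across preparations.

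Total counts per library ran from 11638593 to 25801236 for RiboZero, from 29924325 to 41548830 for PolyA and from 74979801 to 115059756 for NoSelect. In NoSelect, the rows Lars2 and Gm42418 held 67.8% to 71.5% of the counts, so the totals outside these rows were 22009261 to 37100656, and NoSelect levels are low for every gene when scaled to the library total. Levels are therefore read within a preparation. Levels are given as CPM, the TMM-scaled count of a gene relative to the library total. Arntl had 19.1 to 23.6 CPM in RiboZero KO libraries against 34.1 to 42.6 in WT, and 5.81 to 6.58 against 9.70 to 10.4 in NoSelect. In PolyA the groups overlapped, at 26.8 to 32.4 in KO and 31.9 to 37.9 in WT. Which exons the KO allele lacks is not in the labels, so whole-gene counts check the genotype in part. The NoSelect library of KO mouse 6 is labelled liver, but its 10 hepatocyte markers summed to 2.02 CPM, inside the 1.14 to 2.12 of the other NoSelect libraries, and its 8 alveolar type 2 markers summed to 4108 CPM against 2976 to 4200. The libraries of KO mouse 6 held 2 to 16 counts of Xist, against at least 13590 in every other library, and 2195 to 2967 counts of the Y-linked Ddx3y, against 0, which goes against the label female. Ligand calls that change without this mouse are given with and without it, while marker, receptor and inducer calls are given with it alone.

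In WT lung, Cxcl15 was the ligand with the highest level for its transcript length. Cxcl15, also called lungkine, is an ELR chemokine made by the epithelium of the mouse lung. Its level was 341 ± 29.9 CPM per kb in RiboZero (SD, n = 6), 553 ± 64.4 in PolyA (SD, n = 6) and 91.0 ± 7.17 in NoSelect (SD, n = 4). Ccl21a, a CCR7 ligand of lymphatic vessels, came next with 67.8 ± 5.21, 123 ± 15.0 and 17.0 ± 1.20 CPM per kb. Then followed Ccl6, Cxcl14, Cxcl12 and Cxcl17, in an order that depended on the preparation. In RiboZero, the neighbours among Ccl6 (42.4 ± 13.5 CPM per kb), Cxcl14 (32.4 ± 3.43) and Cxcl12 (31.1 ± 4.84) did not differ beyond their spread. In PolyA, Cxcl17 came before these with 71.1 ± 16.2 CPM per kb, followed by Cxcl14 with 54.7 ± 8.71. Cxcl16, Ccl5, Ccl17 and Cx3cl1 held between 10.1 and 20.3 CPM per kb in RiboZero, and neighbours among Cx3cl1, Ccl5 and Ccl17 did not differ beyond their spread. Cxcl15 alone made up 53.0% ± 3.24 of the summed per-kb level of all members in WT RiboZero libraries (SD, n = 6), and 64.8% ± 5.54 in KO (SD, n = 6).

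**Figure D1:**
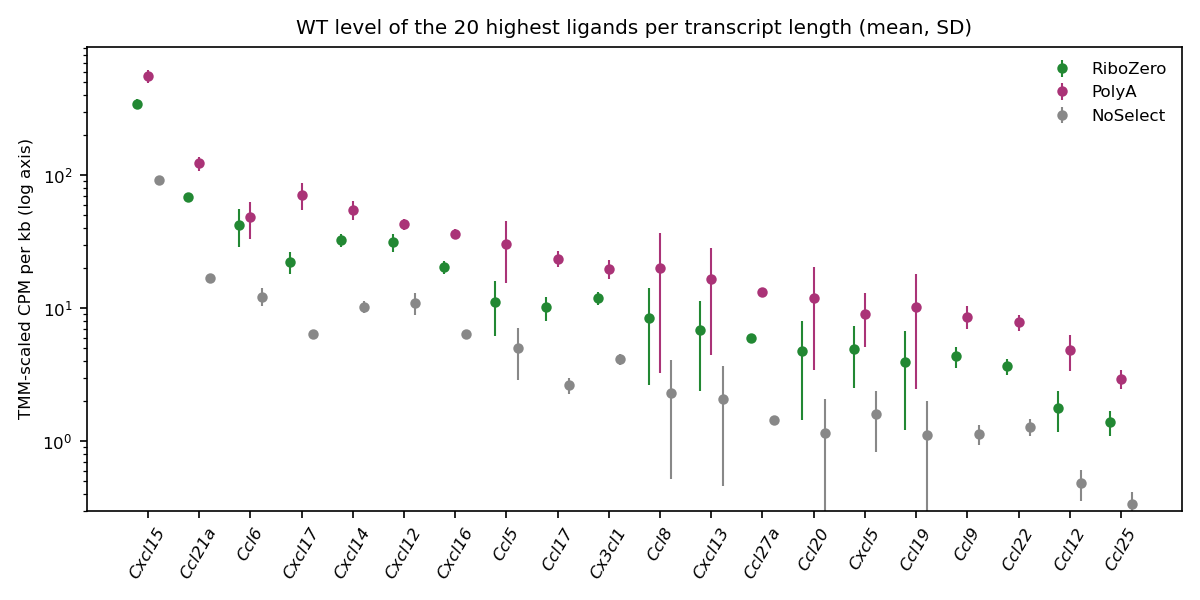
Level of the 20 highest ligands in WT lung, as TMM-scaled CPM per kb of transcript on a log axis, with the mean and SD over 6 RiboZero, 6 PolyA and 4 NoSelect libraries. Cxcl15 lies above Ccl21a in each preparation, at 341 against 67.8 CPM per kb in RiboZero.

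Between KO and WT, 8 of the 38 ligands passed the test in at least 1 preparation, by edgeR's quasi-likelihood test with p-values adjusted over all rows and a threshold of 0.05. Cxcl5, Cxcl15 and Cxcl3 were higher in KO, and Cxcl14, Cxcl16, Ccl9, Ccl11 and Ccl21a were lower. In RiboZero 5 of 26 tested ligands were called (2 higher, 3 lower), where 3.46% of all 16710 rows tested were called (1.84% higher, 1.63% lower). In PolyA 7 of 33 were called (3 higher, 4 lower), where 4.03% of 17211 rows were (1.62% higher, 2.41% lower). In NoSelect 3 of 28 were called (1 higher, 2 lower), where 2.17% of 17124 rows were (1.19% higher, 0.981% lower). Cxcl14 and Cxcl15 were called in all 3 preparations. DESeq2 called 7, 10 and 6 ligands in RiboZero, PolyA and NoSelect. It also called more rows in all, 985, 1355 and 874 against 579, 694 and 372 by edgeR. The ligands it called where edgeR did not were Ccl9 and Cx3cl1 in RiboZero, and Ccl22, Cxcl1 and Cxcl12 in PolyA. In NoSelect they were Ccl21a, Cxcl16 and Cxcl5. The members that were too low to test in every preparation were Ccl1, Ccl21b, Ccl26, Ccl27b and Cxcl11, with at most 46 counts in any library. Because low genes had to pass a minimum count to be tested, the tested ligands are not the whole set. Cxcl3 passed it in PolyA through its KO libraries.

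Most ligands had fold changes below 0. The median log2 fold change (KO over WT) of the tested ligands was -0.14 in RiboZero, -0.24 in PolyA and -0.27 in NoSelect, where the median over all rows was 0.00 in each. Of the tested ligands 7 of 26, 10 of 33 and 8 of 28 had values above 0, where 8355 of 16710 rows, 49.2% and 50.2% of all rows did. Of the 26 ligands tested in all 3 preparations, 14 had negative values in each and 4 had positive values in each (Ccl12, Cxcl5, Cxcl12 and Cxcl15). The preparations share mice, so these are not independent counts. In whole lung, fewer cells of a type and less RNA per cell cannot be told apart.

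**Figure D2:**
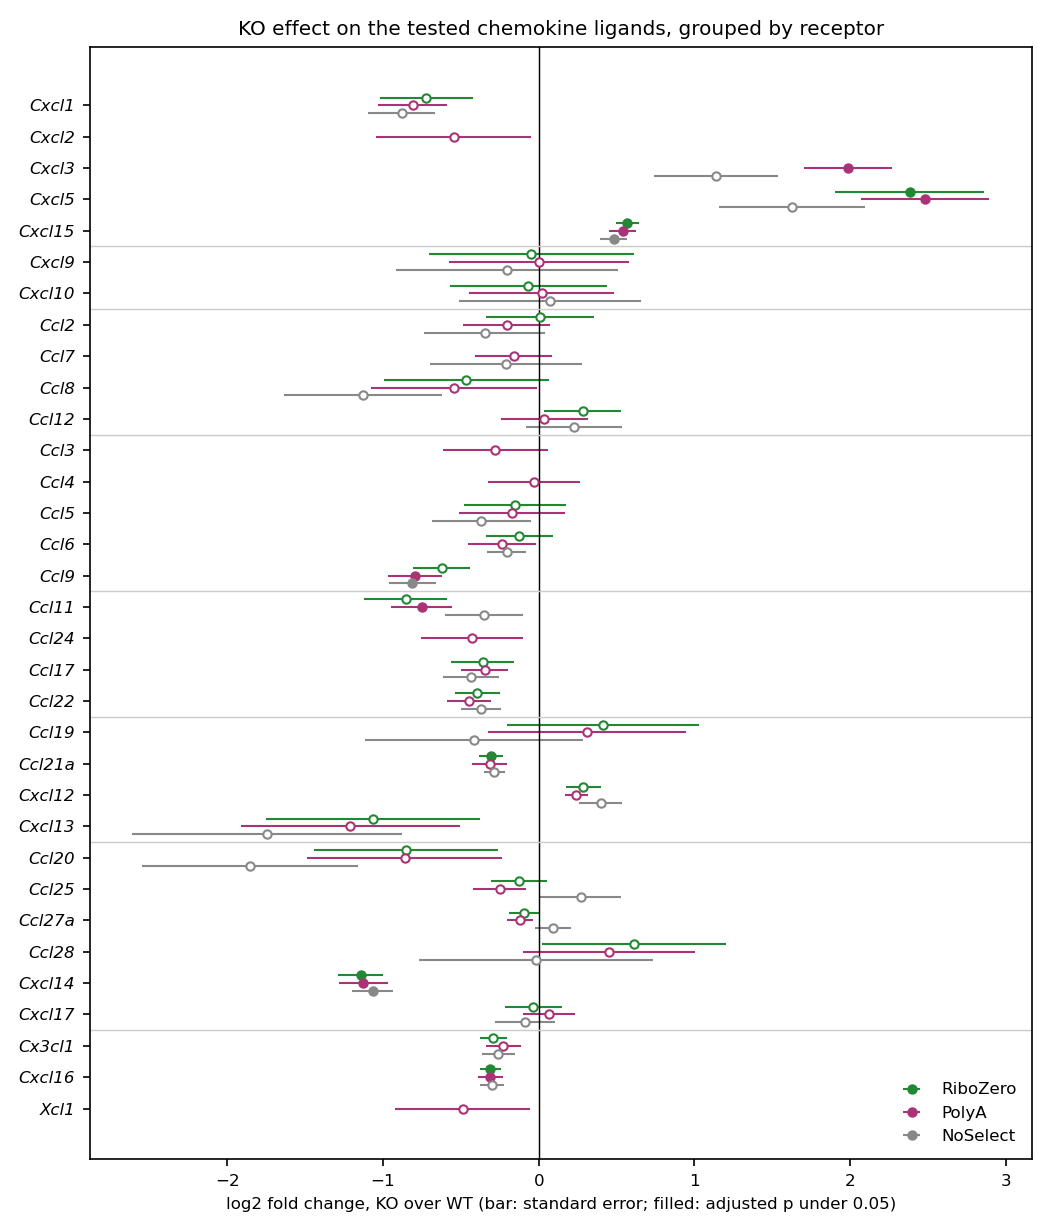
The log2 fold change of KO over WT for every ligand tested in at least 1 preparation, with its standard error, one row per ligand grouped by receptor class. Filled points are below an adjusted p of 0.05, and Cxcl5 and Cxcl3 lie farthest to the right, at 2.48 and 1.99 in PolyA.

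The ELR ligands, which draw neutrophils, were split. Cxcl5, Cxcl3 and Cxcl15 were higher in KO, while Cxcl1 and Cxcl2 had values below 0 and were not called. Cxcl5, known as LIX, is an epithelial neutrophil attractant. In RiboZero, Cxcl5 ran from 3.05 through a median of 6.88 to 13.0 CPM in WT, and from 14.6 through 26.3 to 98.2 in KO. All 6 KO libraries lay above all 6 WT libraries, and KO mouse 1 and KO mouse 5 were highest, at 98.2 and 53.2 CPM. In PolyA, WT ran from 6.58 through 12.8 to 22.1 CPM and KO from 37.8 through 61.2 to 169.5, again without overlap. In NoSelect the 4 WT libraries held 1.71, 2.82, 1.44 and 4.14 CPM and the 4 KO libraries 4.20, 5.21, 15.1 and 6.67, without overlap but with the highest WT close to the lowest KO. The KO libraries all lay above the WT libraries for 1.36%, 1.31% and 4.89% of all rows in RiboZero, PolyA and NoSelect.

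Cxcl5 rose by a log2 of 2.38 (SE 0.48) in RiboZero, a 5.21-fold change, with an adjusted p of 0.0162 in edgeR. In PolyA the log2 fold change was 2.48 (SE 0.41, adjusted p = 0.00499 in edgeR). In NoSelect it was 1.63 (SE 0.47) and missed the threshold, with an adjusted p of 0.136. DESeq2 called it there, with an adjusted p of 0.0473. Without KO mouse 1, the highest, Cxcl5 remained called in RiboZero at 1.88 (adjusted p = 0.017) and in PolyA at 2.12 (adjusted p = 0.00587). With mice 3 to 6 alone, which leaves out mice 1 and 2 of both genotypes, the RiboZero value was 1.58 and the call was lost (adjusted p = 0.101), while PolyA kept it at 1.85 (adjusted p = 0.039). Without KO mouse 6 the values were 2.49 in RiboZero (adjusted p = 0.0185) and 2.55 in PolyA (adjusted p = 0.00891).

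Cxcl3, a close relative of Cxcl1 and Cxcl2, was a low gene. In PolyA its WT libraries held 0.170 to 0.408 CPM (median 0.339), at most 14 counts, and its KO libraries 0.680 to 1.89 CPM (median 1.18), at most 65 counts. All KO libraries lay above all WT libraries, and the log2 fold change was 1.99 (SE 0.28, adjusted p = 0.00165 in edgeR). Its WT libraries alone would not have passed the minimum count, so it entered this test through the KO libraries, where it was high. With no filter on low counts, edgeR called it in RiboZero and PolyA and not in NoSelect. In RiboZero it was too low to test, with 5 of the 6 KO libraries above the highest WT. In NoSelect it was 1.14 (SE 0.40, adjusted p = 0.216), with 4 of 4 KO libraries above WT. Cxcl3 shares 5.46% of its 31-base words with other transcripts, and 161 words with Cxcl2, so a read from such a stretch could come from either gene. The counts of both genes were whole numbers in every library, so they show no split of reads between them.

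Cxcl15, the most abundant ligand, rose by less but with a smaller spread. Its KO libraries ran from 943 through a median of 1067 to 1211 CPM in RiboZero, against 655 through 725 to 801 in WT. The PolyA values were 1456 through 1713 to 1964 CPM in KO and 1028 through 1152 to 1359 in WT. In NoSelect the KO libraries held 242, 285, 252 and 300.2 CPM and the WT libraries 197, 204, 202 and 171. Groups did not overlap in any preparation. The log2 fold changes were 0.57 (SE 0.08, adjusted p = 0.00105), 0.54 (SE 0.09, adjusted p = 0.00395) and 0.48 (SE 0.08, adjusted p = 0.0262) in edgeR. The NoSelect call was lost when any of WT 3, WT 4, WT 5, WT 6, KO 4 or KO 5 was left out, and the RiboZero and PolyA calls in none of 12 such fits each.

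Cxcl1, known as KC, is an early neutrophil attractant induced in epithelium, fibroblasts and macrophages. It held 0.832 to 1.70 CPM in PolyA WT libraries and 0.520 to 0.963 in KO. Its log2 fold change was -0.72 (SE 0.30), -0.81 (SE 0.22) and -0.88 (SE 0.22), with adjusted p of 0.241, 0.0645 and 0.089 in edgeR. DESeq2 called it in PolyA (adjusted p = 0.0222). Cxcl2 was tested in PolyA alone, at -0.55 (SE 0.50, adjusted p = 0.609), with both groups spread widely, from 0.0681 to 0.839 CPM in WT and from 0.152 to 0.611 in KO.

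**Figure D3:**
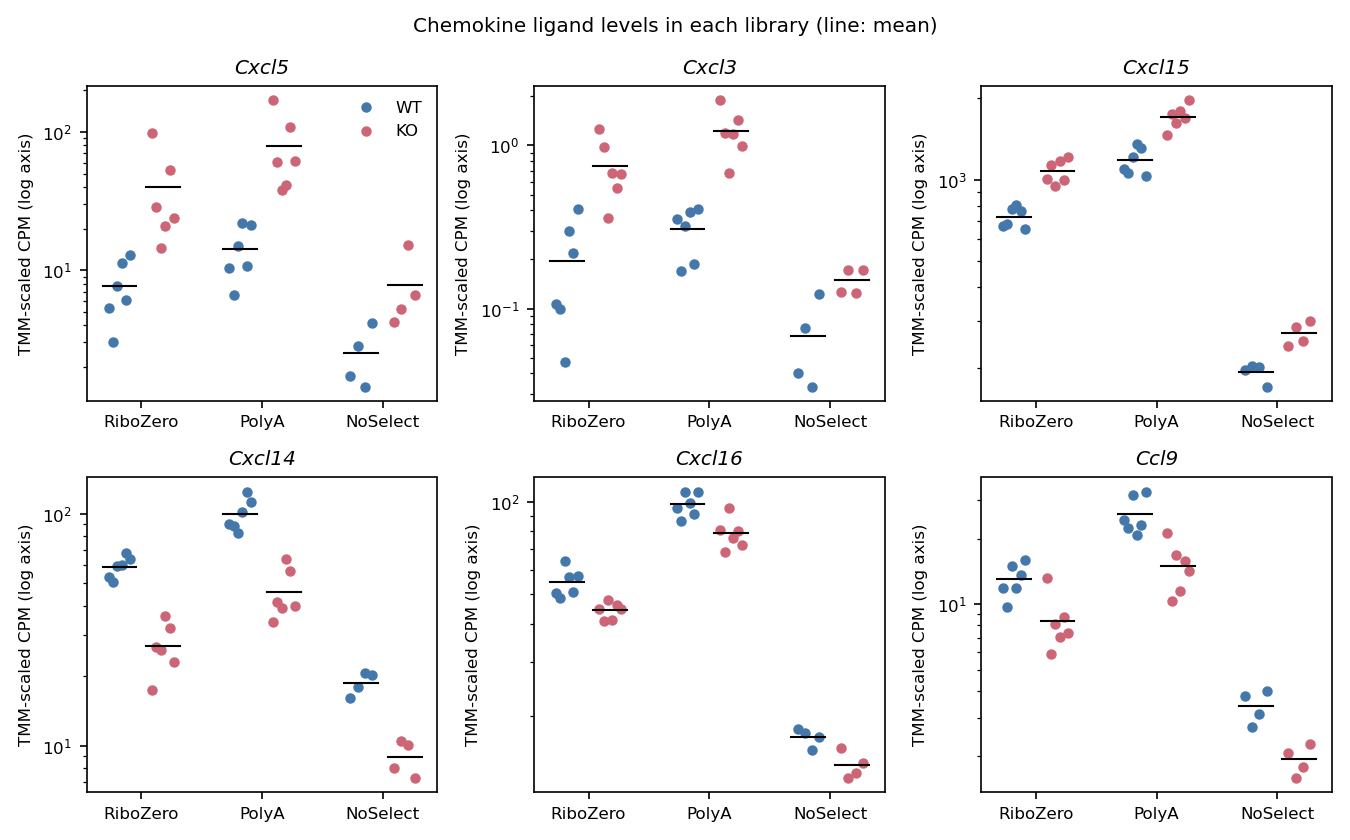
TMM-scaled CPM (log axis) of 6 ligands in every library, by preparation, with WT in blue, KO in red and a line at each mean. KO points lie above WT for Cxcl5 and Cxcl15 and below WT for Cxcl14 in each preparation, and Cxcl5 reaches 169.5 CPM in PolyA.

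These ELR genes lie side by side on chromosome 5 (GRCm38) within 146.6 kb. In the order of the plus strand they are Cxcl5 (start 90759360), the platelet ligand genes Ppbp and Pf4, Cxcl3 (90786103, 26.7 kb on), Cxcl15 (90794534, 35.2 kb on), Cxcl1 (90891241, 131.9 kb on) and Cxcl2 (90903871, 144.5 kb on). The called genes thus start within 35.2 kb of Cxcl5, and the uncalled Cxcl1 and Cxcl2 start 131.9 kb or more from it. Ppbp, the platelet basic protein, lies 9.2 kb from Cxcl5 and had log2 fold changes of 0.62 (SE 0.38), 0.78 (SE 0.37) and 1.25 (SE 0.32), with adjusted p of 0.463, 0.299 and 0.0984 in edgeR. DESeq2 called Ppbp in NoSelect (adjusted p = 0.00376). Pf4, platelet factor 4, had 0.15 (SE 0.11), -0.06 (SE 0.12) and 0.20 (SE 0.15), with adjusted p of 0.556 or more. No test of position was made.

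**Figure D4:**
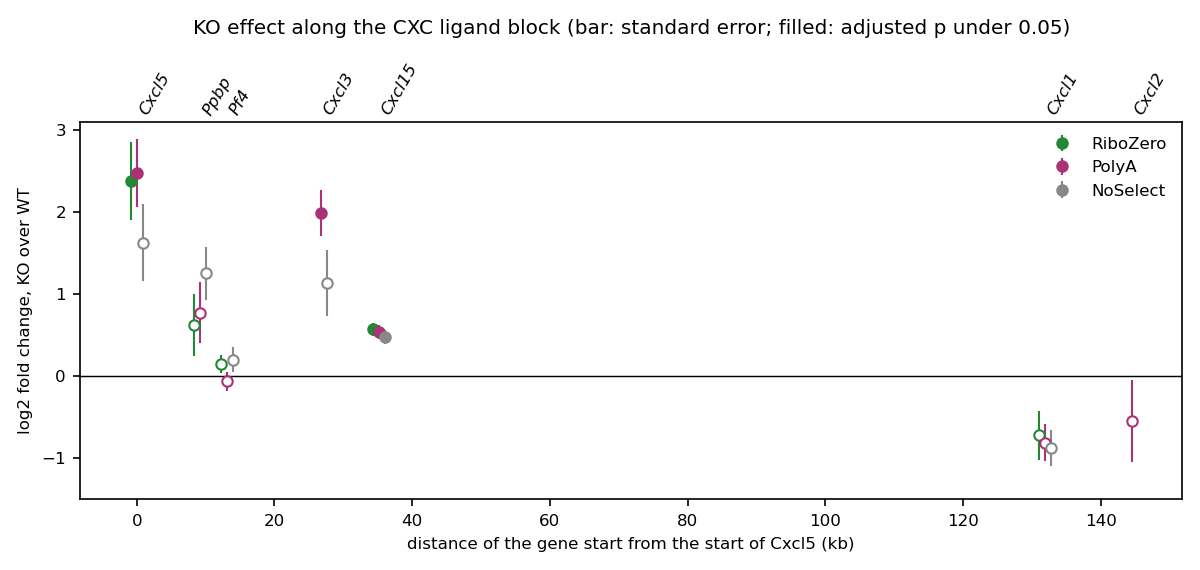
Fold change (log2, KO over WT, with its standard error) of each tested gene of the block against the distance of its start from that of Cxcl5, in kb. Cxcl5, Cxcl3 and Cxcl15 lie above 0, and Cxcl1 and Cxcl2, at 131.9 and 144.5 kb, lie below it.

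Promoters of 27 members, 33 in all, were found in RefSeq's table for GRCm38.p6, each covering 250 bases before to 50 after the start. Cxcl5, Cxcl16 and Ccl11 are not among the 27. Searching both strands for the E-box CACGTG, the letters bound by Bmal1 and its partner Clock, gave a match in 1 of the 33, that of Cxcl3, where 7.15% of 32851 promoters hold it. The NF-kB letters (GGGA and TTCC with NN between them, N being any base) occurred in 5 (Ccl1, Cxcl1, Cxcl2, Cxcl3 and Cxcl10), where 1.47% of all promoters hold them. The RORE core AGGTCA, bound by the clock's Ror and Rev-erb receptors, occurred in 12, where 16.3% of all hold it. The TATA box TATAAA occurred in 10, where 13.6% hold it. A member can have more than 1 promoter here. Overlapping promoters of Ccl27b hold the same RORE core, so the 12 are not separate sites and cannot be set against the share of all. Of the called members, Ccl9 held TATA matches alone and Ccl21a no match to any of these letters, and they are not shown. The sequences show the 250 bases before the start, 5′ to 3′ on the gene's strand, for Cxcl3, Cxcl15 and Cxcl14, with the uncalled Cxcl1 for contrast. Capitals mark matches to these letters on either strand, and E-box, RORE core, NF-kB and TATA matches do not overlap each other.
Cxcl3 (plus strand, chr5:90785851-90786100): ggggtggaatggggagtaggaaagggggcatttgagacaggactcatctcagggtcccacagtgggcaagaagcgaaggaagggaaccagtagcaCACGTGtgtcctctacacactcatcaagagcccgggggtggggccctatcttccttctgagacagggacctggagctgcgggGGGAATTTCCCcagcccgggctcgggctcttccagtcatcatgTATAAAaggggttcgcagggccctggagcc
Cxcl15 (plus strand, chr5:90794284-90794533): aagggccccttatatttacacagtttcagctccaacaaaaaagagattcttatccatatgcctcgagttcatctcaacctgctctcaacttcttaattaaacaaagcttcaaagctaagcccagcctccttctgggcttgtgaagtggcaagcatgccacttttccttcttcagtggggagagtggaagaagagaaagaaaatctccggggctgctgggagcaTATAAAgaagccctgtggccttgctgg
Cxcl1 (plus strand, chr5:90890995-90891244): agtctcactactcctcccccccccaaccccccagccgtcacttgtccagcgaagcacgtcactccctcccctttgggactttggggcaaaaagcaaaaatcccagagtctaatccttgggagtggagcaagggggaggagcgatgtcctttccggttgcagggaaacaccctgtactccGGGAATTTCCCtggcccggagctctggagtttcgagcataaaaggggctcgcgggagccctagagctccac
Cxcl14 (minus strand, chr13:56296552-56296801): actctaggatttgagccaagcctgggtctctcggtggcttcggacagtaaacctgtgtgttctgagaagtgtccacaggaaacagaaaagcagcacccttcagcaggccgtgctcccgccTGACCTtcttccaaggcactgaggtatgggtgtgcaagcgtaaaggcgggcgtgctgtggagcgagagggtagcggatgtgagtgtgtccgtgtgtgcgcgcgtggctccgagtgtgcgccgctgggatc
Cxcl3 holds the E-box 155 bases upstream of the start, an NF-kB run that matches on both strands 73 and 72 bases upstream, and a TATA box 30 bases upstream. Cxcl1 has an NF-kB run at 71 and 70 bases, Cxcl15 a TATA box at 27, and Cxcl14 an RORE core at 130. A match is a description of letters and not of a bound site.

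Neutrophil markers are given beside these ligands. The 10 markers summed to 95.1 to 221 CPM in PolyA WT libraries and to 165 to 448 in KO, to 57.9 to 117 against 83.3 to 242 in RiboZero, and to 14.2 to 28.0 against 20.8 to 41.6 in NoSelect. Of 8 tested markers, Retnlg was called higher in PolyA and none in RiboZero or NoSelect by edgeR, with 5 and 3 at an unadjusted p under 0.05 and 2 and 3 called by DESeq2. Over all rows, 16.4%, 18.0% and 15.7% had an unadjusted p under 0.05 in RiboZero, PolyA and NoSelect. KO mouse 1 had both the highest marker sum and the highest Cxcl5 in RiboZero and PolyA. KO mouse 3 had the lowest marker sum and the lowest Cxcl5 of the KO mice in each preparation. KO mouse 4 had the next highest marker sum, at 183 CPM in RiboZero and 325 in PolyA. Its Cxcl5 was the next to lowest of the KO mice in both, at 41.2 CPM in PolyA. In NoSelect the marker sum was highest in KO mouse 4 (41.6 CPM) and Cxcl5 in KO mouse 5 (15.1 CPM). The 5 platelet markers summed to 7.94 to 19.2 CPM in RiboZero KO libraries, against 4.60 to 13.5 in WT, and to 15.1 to 36.9 against 7.10 to 23.0 in PolyA. In NoSelect they summed to 3.70 to 6.00 CPM in KO and 1.42 to 2.31 in WT, without overlap, and all 5 were higher at an unadjusted p under 0.05. There edgeR called Itga2b and DESeq2 called 3. The part of neutrophils and platelets in these results was not tested. CXCR2's gene, Cxcr2, had log2 fold changes of 0.66, 0.74 and 0.36, with adjusted p of 0.262, 0.255 and 0.619 in edgeR.

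Among the ligands of mucosal surfaces, Cxcl14 fell in all 3 preparations. Cxcl14 is a constitutively made chemokine of epithelia and stroma. Its RiboZero libraries ran from 51.0 through a median of 59.7 to 67.6 CPM in WT and from 17.4 through 26.2 to 36.2 in KO. In PolyA, WT ran from 82.8 through 95.7 to 124 CPM and KO from 34.1 through 40.8 to 63.5. In NoSelect the WT libraries held 16.1, 18.0, 20.6 and 20.2 CPM and the KO libraries 7.98, 10.5, 10.1 and 7.24. Every KO library lay below every WT library, as for 1.53%, 1.90% and 4.62% of all rows. The log2 fold changes were -1.14 (SE 0.15), -1.13 (SE 0.16) and -1.07 (SE 0.13), with adjusted p of 0.000757, 0.00142 and 0.00622 in edgeR, which is 0.453, 0.458 and 0.477 of the WT level. It remained called in each preparation under every alternative tried, 19, 19 and 15 of them. The sums of 7 fibroblast markers overlapped between genotypes in each preparation, at 1602 to 2508 CPM in KO and 1976 to 2427 in WT in RiboZero. Of these markers edgeR called Pi16 lower in RiboZero and PolyA, Dcn lower in PolyA and Col1a1 higher in NoSelect. DESeq2 called Dcn and Pi16 in each preparation, Col1a1 in RiboZero and NoSelect, and Pdgfra in NoSelect. Their part in the Cxcl14 result was not tested.

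The other mucosal ligands were not called. Cxcl17, a mucosal attractant of macrophages, had -0.04 (SE 0.18), 0.07 (SE 0.17) and -0.09 (SE 0.19), so that the 95% interval in PolyA ran from -0.26 to 0.39. Ccl20, the CCR6 ligand of epithelium, had -0.85 (SE 0.59), -0.86 (SE 0.63) and -1.85 (SE 0.70), with a wide spread in both groups (4.39 to 32.9 CPM in PolyA WT and 1.43 to 26.3 in KO). Ccl28 had 0.61 (SE 0.59), 0.45 (SE 0.55) and -0.02 (SE 0.75). Ccl25 and Ccl27a stayed between -0.25 and 0.27 in all 3 preparations. Ccl27a shares 57.0% of its 31-base words with Ccl27b and other copies, and its counts are uncertain for that reason.

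Among Ccl3, Ccl4, Ccl5, Ccl6 and Ccl9, inflammatory CC ligands of leukocytes, Ccl9 fell in PolyA and NoSelect. Ccl9 is made by myeloid cells and acts on CCR1. Its PolyA libraries ran from 20.8 through a median of 23.8 to 32.9 CPM in WT and from 10.4 through 15.0 to 21.3 in KO, and 5 of 6 KO libraries lay below the lowest WT. In NoSelect the WT libraries held 3.77, 2.72, 3.12 and 3.98 CPM and the KO libraries 2.08, 1.59, 1.79 and 2.28, without overlap. The log2 fold changes were -0.79 (SE 0.17, adjusted p = 0.0233) in PolyA and -0.81 (SE 0.15, adjusted p = 0.0346) in NoSelect in edgeR. In RiboZero the value was -0.62 (SE 0.18, adjusted p = 0.0823), and DESeq2 called it (adjusted p = 0.0192). The PolyA call was lost without KO mouse 6 (adjusted p = 0.0513), and without WT 3, WT 6, KO 2 or KO 4. The NoSelect call was lost without WT 3, WT 5, WT 6, KO 3, KO 4 or KO 5.

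Ccl6, which is close to Ccl9 on chromosome 11 and abundant in alveolar macrophages, had -0.12 (SE 0.22), -0.24 (SE 0.22) and -0.21 (SE 0.13) and was not called. Ccl5, known as RANTES and made by T and NK cells, had -0.15 (SE 0.33), -0.17 (SE 0.34) and -0.37 (SE 0.32). Ccl3 and Ccl4 were tested in PolyA alone, at -0.28 (SE 0.34) and -0.03 (SE 0.30). The 10 markers of monocytes and interstitial macrophages summed lower in KO, at 232 to 346 CPM in PolyA KO libraries against 353 to 506 in WT, and at 54.7 to 72.2 against 77.8 to 89.4 in NoSelect, with no overlap in either. In RiboZero the sums were 211 to 270 CPM in KO and 260 to 337 in WT. Of these 10 markers 3, 5 and 2 were called lower in RiboZero, PolyA and NoSelect, with Csf1r, C1qa and Adgre1 called in the first pair. The sums of 10 alveolar macrophage markers overlapped in all preparations. Of these markers Itgax was called lower in each preparation and Mrc1 in PolyA, and none was higher at an unadjusted p under 0.05. The part of either cell type in the Ccl9 result was not tested.

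The CCR2 ligands Ccl2, Ccl7, Ccl8 and Ccl12 draw monocytes, and none was called. Ccl2 had 0.01 (SE 0.35), -0.21 (SE 0.28) and -0.35 (SE 0.39). Ccl8 had -0.46 (SE 0.53), -0.55 (SE 0.53) and -1.13 (SE 0.51), with an adjusted p of 0.329 in NoSelect in edgeR. The interferon-induced CXCR3 ligands Cxcl9 and Cxcl10 had values from -0.20 to 0.07 with standard errors of 0.47 to 0.71, so the spread between mice would hide a change of that size.

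Of the ligands of CCR3, CCR4 and CCR8, Ccl11 fell in PolyA. Ccl11, known as eotaxin, draws eosinophils through CCR3. Its PolyA libraries ran from 1.61 through a median of 2.46 to 3.48 CPM in WT and from 0.934 through 1.61 to 1.77 in KO. The groups overlapped, with 3 of 6 KO libraries below the lowest WT. The log2 fold change was -0.75 (SE 0.19, adjusted p = 0.0496 in edgeR), close to the threshold, and the call was lost in 14 of 19 alternatives, among them the fit without KO mouse 6 (adjusted p = 0.0643). In RiboZero and NoSelect it was -0.85 (SE 0.27, adjusted p = 0.112) and -0.35 (SE 0.25, adjusted p = 0.561). The CCR4 ligands Ccl17 and Ccl22, made by dendritic cells, had negative values in each preparation and were not called by edgeR, while DESeq2 called Ccl22 in PolyA. Ccl17 had -0.36 (SE 0.20), -0.35 (SE 0.15) and -0.44 (SE 0.18), and Ccl22 had -0.39 (SE 0.15), -0.45 (SE 0.14) and -0.37 (SE 0.13), with adjusted p of at least 0.108 in edgeR.

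Among ligands that place lymphocytes and stem cells, Ccl21a fell in RiboZero by a log2 of 0.31 (SE 0.08, adjusted p = 0.046 in edgeR). WT libraries ran from 54.4 through a median of 58.6 to 66.5 CPM and KO libraries from 41.8 through 46.1 to 57.6, with 5 of 6 KO below the lowest WT. PolyA gave -0.32 (SE 0.11, adjusted p = 0.143) and NoSelect -0.29 (SE 0.07, adjusted p = 0.073), the latter without overlap (11.4 to 13.3 CPM in KO and 14.0 to 16.2 in WT). The RiboZero call was lost in 13 of 19 alternatives, 11 of which left out 1 library, including KO mouse 6 (adjusted p = 0.0781). Ccl21a shares 80.6% of its 31-base words with Ccl21b and other copies, so its counts are uncertain. The 5 lymphatic endothelial markers summed to 288 to 360 CPM in RiboZero KO libraries against 369 to 468 in WT, without overlap, and Reln was called lower in each preparation. Their part in the Ccl21a result was not tested.

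Cxcl12, the CXCR4 ligand of stroma, had positive values of 0.29 (SE 0.11), 0.24 (SE 0.08) and 0.40 (SE 0.14), with adjusted p of 0.22, 0.105 and 0.204 in edgeR. DESeq2 called it in PolyA (adjusted p = 0.0357). Its libraries ran from 208 to 277 CPM in PolyA WT and from 256 to 322 in KO. Cxcl13 draws B cells through CXCR5, and Ccl19 draws T cells and dendritic cells through CCR7. Both varied widely, with a few mice far above the others of their genotype. In RiboZero, Cxcl13 lay at 18.1 CPM in WT mouse 6 and at 4.90 to 6.99 in the other WT mice. Among KO mice it lay at 10.9 and 7.49 CPM in mice 1 and 5. In the other 4 KO mice it lay at 0.588 to 1.07, below every WT mouse. Its log2 fold changes of -1.06 (SE 0.69), -1.21 (SE 0.70) and -1.74 (SE 0.87) did not pass the test (adjusted p of 0.49, 0.397 and 0.381 in edgeR). Ccl19 was 19.9 CPM in WT mouse 6, 28.3 in KO mouse 1 and 16.6 in KO mouse 5 in PolyA, and 2.83 to 6.85 in the other mice. It had 0.41 (SE 0.62), 0.31 (SE 0.64) and -0.42 (SE 0.70), and shares 58.8% of its 31-base words with other copies. The sums of 6 B cell markers were highest in the same mice, in PolyA at 179 CPM in WT mouse 6, 253 in KO mouse 1 and 167 in KO mouse 5, against 28.5 to 86.8 in the others. Their part in the Cxcl13 and Ccl19 values was not tested. KO mice 1 and 5 were also the KO mice with the highest Cxcl5.

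**Figure D5:**
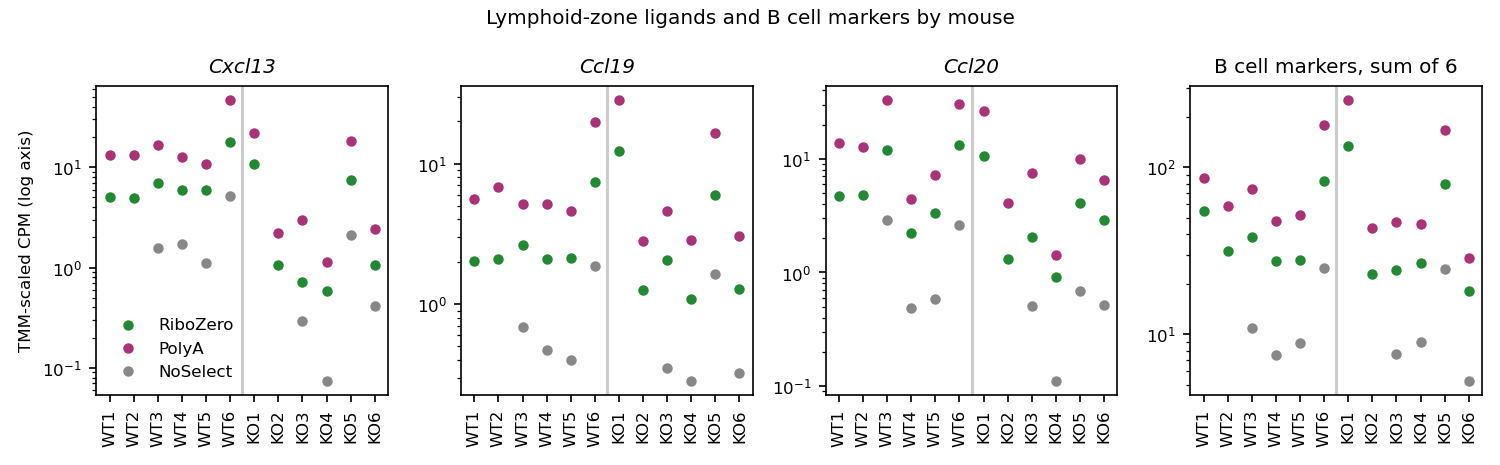
TMM-scaled CPM (log axis) of Cxcl13, Ccl19 and Ccl20 and the sum of 6 B cell markers for each mouse, coloured by preparation. WT mouse 6 and KO mice 1 and 5 have the highest B cell sums, at 179, 253 and 167 CPM in PolyA, and the highest Ccl19.

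The membrane-bound ligands Cxcl16 and Cx3cl1, which act on CXCR6 and CX3CR1, were lower by small amounts. Cxcl16 ran from 48.6 through a median of 53.9 to 64.3 CPM in RiboZero WT libraries and from 40.9 through 44.7 to 47.8 in KO, without overlap. Its log2 fold changes were -0.31 (SE 0.07, adjusted p = 0.0258) in RiboZero, -0.31 (SE 0.08, adjusted p = 0.0484) in PolyA and -0.30 (SE 0.08, adjusted p = 0.101) in NoSelect in edgeR. In PolyA the groups overlapped and the call was lost in 13 of 19 alternatives, among them the fit without KO mouse 6 (adjusted p = 0.101). In RiboZero it was lost in 5 of 19. Cx3cl1 had -0.29 (SE 0.09), -0.23 (SE 0.11) and -0.26 (SE 0.11) with adjusted p of 0.0906, 0.314 and 0.28 in edgeR. Xcl1, tested in PolyA alone, had -0.49 (SE 0.43).

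The other side of the pathway is formed by 18 chemokine receptors and 5 atypical receptors. Of 15, 16 and 16 tested receptors in RiboZero, PolyA and NoSelect, Ccr8 alone was called, in PolyA, with -1.26 (SE 0.28, adjusted p = 0.0271 in edgeR), where 4.03% of all rows were called. Ccr8 was low, at 0.587 CPM in PolyA WT libraries and 0.243 in KO (means, n = 6), and was not tested in RiboZero or NoSelect. At an unadjusted p under 0.05 there were 1, 4 and 3 receptors, against 16.4%, 18.0% and 15.7% of all rows, and DESeq2 called 0, 1 and 0. None of the 4, 5 and 4 tested atypical receptors was called by edgeR or DESeq2, with 0, 2 and 1 at an unadjusted p under 0.05. Of 25 genes listed as inducers of chemokines (cytokines and transcription factors), 18, 19 and 18 were tested and edgeR called none, with 7, 5 and 5 at an unadjusted p under 0.05, to be read against the same shares of all rows. DESeq2 called 3, 1 and 4 of them, where it called 985, 1355 and 874 of all rows. These were Irf1, Nfkb1 and Stat3 in RiboZero, Il33 in PolyA, and Il33, Irf1, Nfkb2 and Stat3 in NoSelect. Irf1 had fold changes above 0 in each preparation in edgeR, and the others had values below 0.

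The KO effect was also compared between preparations, since a call in 1 preparation and not in another does not show a difference. The interaction of genotype and preparation was tested for 33 ligands (PolyA minus RiboZero), 33 (PolyA minus NoSelect) and 29 (RiboZero minus NoSelect). No ligand was called by edgeR or DESeq2, and 0 had an unadjusted p under 0.05. Among all rows edgeR called 0 in each (0.0%), with 331, 412 and 244 at an unadjusted p under 0.05 (1.82%, 2.24% and 1.39%), and DESeq2 called 11, 13 and 9. The lowest unadjusted p was 0.0914, for Ccl25 (PolyA minus NoSelect, -0.54, SE 0.31). For Cxcl5 the KO effect in PolyA exceeded that in RiboZero by 0.10 and that in NoSelect by 0.83, with an adjusted p of 1.0 in both. That fit ignores that the same mice recur and sets 12 PolyA libraries against 8 NoSelect libraries. With the mouse as a block, the Cxcl5 differences were 0.18 (PolyA minus RiboZero), 0.21 (PolyA minus NoSelect) and -0.08 (RiboZero minus NoSelect, 0.75 without the block), with adjusted p of 0.921, 0.749 and 1.0 in edgeR.

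The level of a ligand depended on the preparation itself. The main fits here did not pair the libraries of a mouse. Between PolyA and RiboZero, 3 of 33 tested ligands were higher in PolyA by a log2 of at least 1 and 0 were lower, where 23.6% of all 18164 rows were called (7.0% higher, 16.6% lower). These were Ccl7 (1.43), Cxcl17 (1.38) and Ccl5 (1.11). Between PolyA and NoSelect, 8 of 33 were higher and 0 lower, where 25.1% of 18372 rows were called (10.0% higher, 15.1% lower). These were Ccl20 (1.67), Cxcl17 (1.43), Ccl19 (1.42), Ccl4 (1.36), Ccl7 (1.32), Ccl8 (1.27), Ccl17 (1.07) and Ccl12, which lay between the last pair. Between RiboZero and NoSelect 0 of 29 were called by edgeR or DESeq2, where 4.3% of 17502 rows were (1.74% higher, 2.56% lower), and 6 had an unadjusted p under 0.05, against 51.2% of all rows. The median log2 of the tested ligands was 0.61 and 0.71 higher in PolyA, against a median over all rows of 0.06 and 0.10. Cxcl17 held 49.2 ± 10.1 CPM in the PolyA libraries (SD, n = 12) and 18.8 ± 4.27 in the RiboZero libraries (SD, n = 12), without overlap, on the scale of the joint fit.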

How the data were processed

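RNA sequencing of lung from 12 mice gave 32 libraries in 6 groups, and a WT and a KO mouse of the same number are separate animals. The deposited values are estimated counts of each gene in each library, and 12.81% of them were not whole. Salmon 1.4.0, UMI-tools 1.1.1 and the build GRCm38 are named in the submitters' processing notes, without roles. Whether duplicates were removed is not given in the sources used here. The protocols in the labels give 200 ng of input RNA for RiboZero and PolyA and 15 ng for NoSelect, with 6 combined preparations per NoSelect library and 11 PCR cycles throughout.

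Estimated counts were rounded and tested in R 4.3.3 with edgeR 4.0.16 (TMM, filterByExpr, quasi-likelihood test, Benjamini-Hochberg adjustment over all rows tested). KO was set against WT within each preparation with genotype alone, the interaction with preparation was fitted per pair, and preparations were compared with genotype as a covariate at an absolute log2 of at least 1. Levels are TMM-scaled CPM, or CPM per kb of a GENCODE M21 transcript, and 95% intervals are normal ones from the standard error. Other settings tried were DESeq2 1.42.0, size factors by median of ratios, looser and stricter count filters, replicate blocks, subsets of mice, and 1 joint fit. Leaving out each mouse in the preparation comparisons was added after seeing the data. Simulated counts with 200 changed rows were recovered at 100% in the 3 KO comparisons. The changes set there were larger than those of most called ligands, in well-counted rows with the same spread. This checked the procedure and not the power for these ligands. Named members are Cxcl5, Cxcl15, the 8 other ligands with the highest WT level per kb, and every called ligand. Members, gene lists and this rule were chosen with earlier results of these data known. Replicate libraries differed by 6.67 to 65.9 times sampling noise (chi-square per degree of freedom, 72 pairs). Libraries of a mouse in different preparations deviated together from their group means (r of 0.322 to 0.781 over 13282 rows), and WT and KO libraries of equal number did not in every pair (-0.137 to 0.254). In the KO comparisons the p-values measure the spread between mice. The main interaction and preparation fits treated libraries of the same mouse as independent.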

Additional observations from a re-analysis of the deposited data

Results flagged for a closer look

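Of 120 groups of libraries checked, 12 held a library far from the others by Dixon's criterion. The groups were those of the named members and of Cxcl1, Cxcl13, Ccl19, Ccl20, Pf4, Ppbp and Arntl. Chance gives about 1 in 20, but part of the genes were picked by hand and the same mice recur across preparations. The count therefore cannot be set against that share. All 12 fall on 5 genes outside the named members, and the cause was not tested. Cxcl13, the B cell attractant, was highest in WT mouse 6 in all 3 preparations, at 18.1 CPM in RiboZero (next 6.99), 46.8 in PolyA (next 16.6) and 5.14 in NoSelect (next 1.73). In NoSelect it was also high in KO mouse 5, at 2.11 CPM with the next KO library at 0.411. Ccl19 was high in the same mice, at 7.37 CPM in RiboZero and 19.9 in PolyA for WT mouse 6, where the next WT libraries held 2.63 and 6.85. In NoSelect, Ccl19 was 1.64 CPM in KO mouse 5, and the next KO library held 0.351. Ccl20 was highest among KO libraries in mouse 1, at 10.5 CPM in RiboZero (next 4.05) and 26.3 in PolyA (next 9.95). Ppbp, the platelet ligand beside Cxcl5, was 10.6 CPM in KO mouse 5 (next 5.97) and 9.05 in WT mouse 1 (next 3.76) in RiboZero. Cxcl1 was 0.216 CPM in WT mouse 4 in NoSelect, with the next WT library at 0.181.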

How the results depend on the processing

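The 9 comparisons were recomputed under 14 to 19 alternatives each. Cxcl14 in all preparations, Cxcl15 in RiboZero and PolyA, and Cxcl5 and Cxcl3 in PolyA kept their call in every alternative that tested them. Over 74 gene-level results and 1231 alternative values, 1113 kept side and direction, 75 lost the threshold, 18 gained it and 25 changed sign. The cause of these changes was not tested.

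In RiboZero the 5 called ligands became 8 in a joint fit of all 32 libraries and 3 with mice 3 to 6 alone. They ranged from 3 to 7 when a library was left out, and without KO mouse 6 there were 4. The 579 called rows became 985 with DESeq2, 372 with the replicate block, 891 in the joint fit and 255 with mice 3 to 6 alone (380 to 644 with a library left out). In PolyA the 7 called ligands ranged from 4 to 7 with a library left out, and without KO mouse 6 there were 4. The 694 called rows became 1355 with DESeq2 and 1564 in the joint fit (442 to 1066 with a library left out). In NoSelect the 3 called ligands became 6 with DESeq2 (1 to 3 with a library left out), and the 372 called rows became 874 with DESeq2 and 103 with the replicate block (148 to 472 with a library left out). The called rows of the interaction became 11 (PolyA minus RiboZero), 13 (PolyA minus NoSelect) and 9 (RiboZero minus NoSelect) with DESeq2, and 1 in the first and last with the replicate block. With a library left out, PolyA minus NoSelect gave 0 to 2. The ligands called between PolyA and RiboZero ranged from 3 to 7 with a mouse left out, and without KO mouse 6 there were 4.

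The replicate block, which pairs WT and KO animals by number alone, also ended the Cxcl5 call in RiboZero (2.16, adjusted p = 0.0756) and the Cxcl15 call in NoSelect (adjusted p = 0.124), and it brought Ppbp in NoSelect past the threshold (adjusted p = 0.0267). With the mouse as block, the Cxcl5 interaction of RiboZero minus NoSelect turned from 0.75 to -0.08. Values near 0 crossed it when 1 library was left out. Ccl5 ran from -0.44 to 0.07 in RiboZero and from -0.39 to 0.12 in PolyA, and Ccl6 from -0.25 to 0.01 in RiboZero. Cxcl17 ran from -0.16 to 0.07 in RiboZero and from -0.25 to 0.05 in NoSelect, and Pf4 from -0.13 to 0.02 in PolyA. Pf4 also turned to 0.14 in PolyA with mice 3 to 6 alone. Interactions near 0 did the same. For PolyA minus RiboZero, Ccl25 ran from -0.23 to 0.01, Cxcl14 from -0.01 to 0.07, Cxcl15 from -0.03 to 0.04 and Cxcl3 from -0.18 to 0.26. For PolyA minus NoSelect, Cxcl14 ran from -0.12 to 0.01 and Cxcl15 from 0.00 to 0.09, and for RiboZero minus NoSelect, Cxcl14 ran from -0.13 to 0.02. Depth limits the low ligands: 12, 5 and 10 of the 38 could not be tested in RiboZero, PolyA and NoSelect.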

Other observations

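The surfactant protein genes Sftpa1 and Sftpd, defense lectins of alveolar type 2 cells, were called lower in PolyA and NoSelect, and Sftpa1 in RiboZero. The 6 club cell markers all had fold changes above 0 in each preparation, with medians of 0.47, 0.44 and 0.45, and edgeR called none. At an unadjusted p under 0.05 there were 2, 1 and 2 of them, and DESeq2 called 0, 0 and 1, the club cell secretory protein gene Scgb1a1. The 7 blood endothelial markers had values above 0 in each preparation and edgeR called none, with 3, 2 and 3 at an unadjusted p under 0.05 and 0, 1 and 1 called by DESeq2.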
